A study of Mus musculus with 6 samples.

Results

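A set of 9 erythroid genes were followed through 6 RNA-sequencing libraries of sorted brain endothelial cells from the mouse embryo: the embryonic globins Hbb-y, Hbb-bh1 and Hba-x, the adult globins Hba-a1 and Hbb-b1, the haem enzyme gene Alas2, the transcription factor genes Klf1 and Gata1, and Epb4.2, which encodes a red cell membrane protein. They were chosen by symbol and are 9 of the 22431 symbols in the deposited tables. They fill 10 of the 22958 entries, since Hba-a1 has 2, and 6 of the 9 had enough reads to be tested between the groups. The 3 Axin1 libraries came from embryos labelled Cdhrs5CreERT2:R26Axin1IL+/-, which overexpress Axin1, a negative regulator of Wnt/beta-catenin signalling. The 3 control libraries came from embryos labelled Cdhrs5CreERT2:R26Axin1IL-/-, with wildtype Axin1. Both groups thus carried the tamoxifen-inducible Cre line, were of strain C57BL/6 x 129/Sv, had mothers given tamoxifen at E9.5 and were collected at E11.5 (E, embryonic day). The cells in which the Cre line is active, and whether embryos were pooled, are not stated in the labels. The libraries of a group are called biological replicates there, and p-values measure only the spread between these libraries.

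Globin is the protein part of haemoglobin, which pairs alpha-type with beta-type chains around haem. At mid-gestation the circulation of the mouse embryo holds mostly primitive erythroid cells, which arise in the yolk sac, still carry a nucleus and RNA, and use embryonic globins: Hba-x (zeta) as an alpha-type chain, and Hbb-bh1 (beta-h1) and Hbb-y (epsilon-y) as beta-type chains. As these cells mature, Hbb-bh1 gives way to Hbb-y, while adult alpha and beta globins serve the later definitive lineage and part of the primitive one. CD31, also called PECAM1, was the antigen of the sort. It marks endothelium and is also found on platelets, megakaryocytes and many leukocytes.

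The libraries held 11633853 to 14234409 reads (Axin1) and 10772492 to 13035808 reads (control). Axin1 itself had 79.8, 62.2 and 66.2 CPM (reads scaled to library size, TMM-normalised) in the Axin1 libraries, against 25, 17.6 and 20.8 CPM in the controls, in the direction of the labels (edgeR adjusted p = 0.0103). All of 12 endothelial markers had reads, and they summed to 8102 to 9020 CPM in Axin1 libraries and 7813 to 8312 CPM in controls. Of 12661 genes tested, 107 passed edgeR's quasi-likelihood test at an adjusted p of 0.05, which is 0.845%, with 45 higher in the Axin1 libraries (0.355%) and 62 lower (0.490%).

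Embryonic globin RNA was abundant in this endothelial sort, and it differed more between libraries of the same genotype than between genotypes. Hbb-y, the most abundant globin, had 134, 817 and 1887 CPM in Axin1 libraries 1, 2 and 3, against 439, 1269 and 1835 CPM in control libraries 1, 2 and 3. The groups overlapped throughout this range: Axin1 library 1 was lowest, and Axin1 library 3 and control library 3 were highest. Hbb-bh1 had 24.8, 146 and 209 CPM in the Axin1 libraries, against 80.8, 222 and 361 CPM in the controls. Hba-x had 73.4, 258 and 493 CPM in the Axin1 libraries, against 157, 330 and 783 CPM in the controls. For both genes Axin1 library 1 was again lowest, and control library 3 was highest. Together the 3 genes took 0.0232%, 0.125% and 0.258% of all reads in the Axin1 libraries, against 0.0659%, 0.182% and 0.301% in the controls. In bulk RNA fewer erythroid cells and less globin RNA per cell cannot be told apart.

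**Figure D1:**
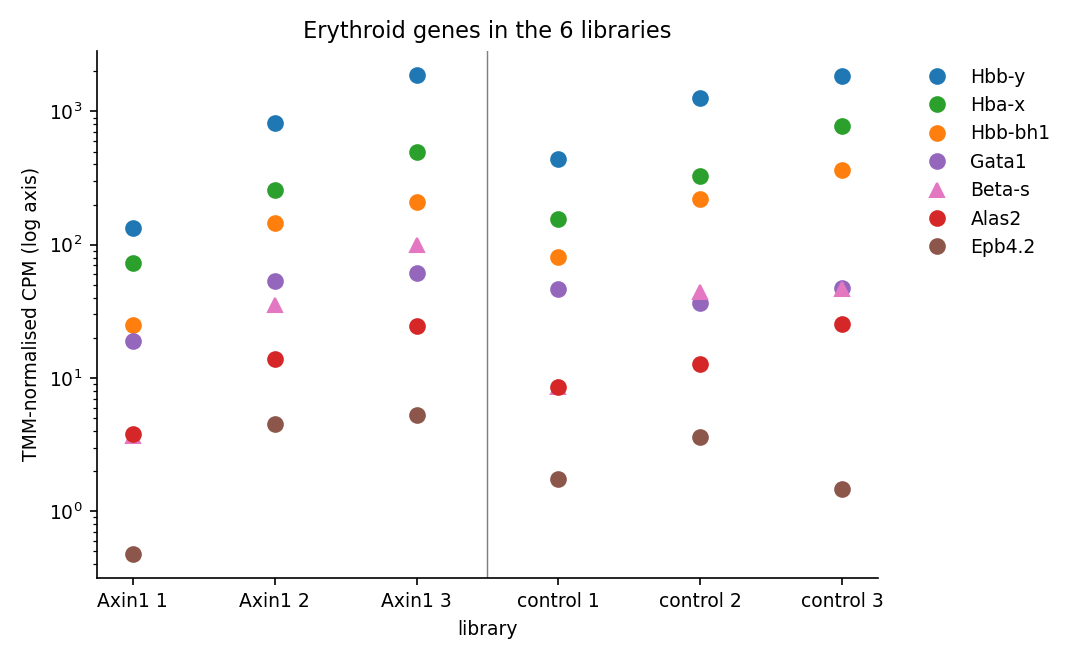
TMM-normalised CPM (log axis) of 6 erythroid genes and of Beta-s, an adult beta globin entry, in Axin1 libraries 1 to 3 (left) and control libraries 1 to 3 (right), 1 point per gene and library. Hbb-y runs between 134 and 1887 CPM, and Gata1 between 19.1 and 61.5 CPM, with the groups overlapping for every gene.

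The highest library exceeded the lowest 14-fold for Hbb-y, 14.6-fold for Hbb-bh1 and 10.7-fold for Hba-x, where the median tested gene had a 1.67-fold range. Within the Axin1 group alone the range of Hbb-y was 14-fold, and within the controls it was 4.18-fold. A range as wide as that of Hbb-y was reached by 2.99% of the tested genes, and one as wide as that of Hba-x by 4.04%.

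No difference between the groups was detectable against this spread. Hbb-y averaged 946 ± 884 CPM in Axin1 libraries and 1181 ± 702 CPM in controls (SD, n = 3 each), a log2 fold change of -0.32 (standard error 1.01, 95% CI -2.89 to 2.25, edgeR adjusted p = 0.914). The log2 fold change was -0.81 for Hbb-bh1 (95% CI -3.10 to 1.49, edgeR adjusted p = 0.709) and -0.62 for Hba-x (95% CI -2.86 to 1.62, edgeR adjusted p = 0.775). These intervals cover a change of more than 2 on the log2 scale downward and more than 1 upward, so neither direction is established. None of the 6 tested genes passed edgeR's test, and none of the 5 with an adjusted p in DESeq2 passed there (Epb4.2 had none; DESeq2 called 5.69% of all tested genes). None of the 6 had an unadjusted p under 0.05 in edgeR, where 2177 of the 12661 tested genes did. The groups overlapped for each of the 6 tested genes, and they did not overlap for 23.8% of all tested genes. The sign for Hbb-y turned without Axin1 library 1 (log2 fold change 0.19) or without control library 3 (0.14), and that for Hba-x turned without control library 3 (0.16).

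**Figure D2:**
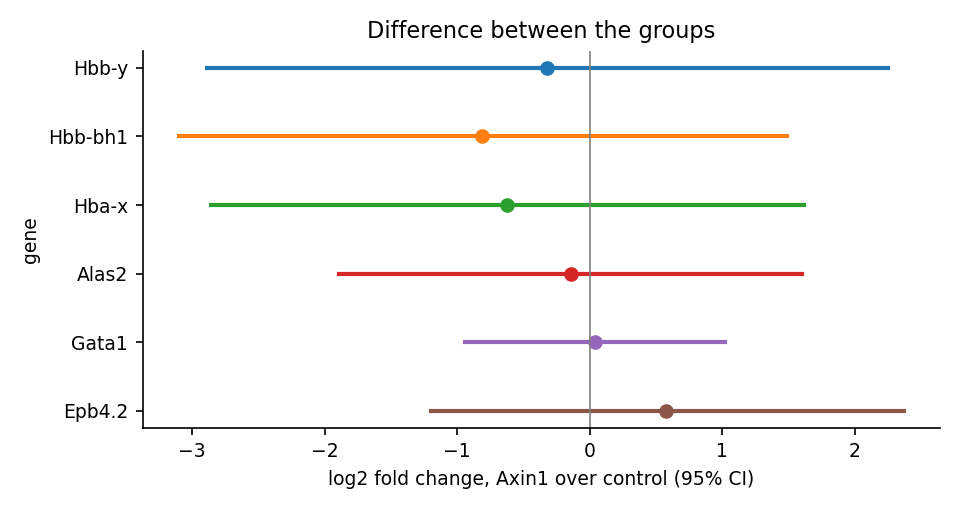
Log2 fold change, Axin1 over control, of the 6 tested erythroid genes from edgeR's quasi-likelihood fit (points) with 95% confidence intervals (bars). All 6 intervals cover 0, and that of Gata1 is the narrowest, from -0.94 to 1.02.

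Although the amount of globin RNA varied widely, its composition was much steadier. On the per-length scale (RPKM), Hbb-y made up 57.1%, 66.3% and 72.3% of the summed embryonic globins in Axin1 libraries 1, 2 and 3, against 64.3%, 69.2% and 61.0% in the controls. Hba-x made up 32.2%, 21.6% and 19.5% in the Axin1 libraries, against 23.7%, 18.6% and 26.8% in the controls. Hbb-bh1 made up 10.7%, 12% and 8.14% in the Axin1 libraries, against 12%, 12.3% and 12.2% in the controls. The order Hbb-y, Hba-x, Hbb-bh1 was the same in all 6 libraries, while their summed RPKM was 375, 2012 and 4160 in the Axin1 libraries, against 1063, 2936 and 4859 in the controls.

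The ratio of Hbb-bh1 to Hbb-y, the pair that exchanges as primitive erythroid cells mature, was alike in 5 of the 6 libraries. It was 0.187, 0.182 and 0.113 (ratio of RPKM) in Axin1 libraries 1, 2 and 3, against 0.187, 0.178 and 0.2 in the controls. Axin1 library 3 stood below the others. There Hbb-bh1 took 9.98% of the reads of both beta-type genes (exact 95% binomial CI 9.61 to 10.4), while in the other 5 libraries it took 14.9% to 16.5%, with intervals whose lowest bound was 14%. These intervals cover counting error only. Between the groups the mean ratio was 0.160 ± 0.0415 in Axin1 libraries and 0.188 ± 0.0113 in controls (SD, n = 3 each), a log2 difference of -0.27 (two-sided exact permutation test over 20 splits, p = 0.5, where the smallest possible p is 0.1). Without Axin1 library 3 the log2 difference was -0.03.

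The ratio of alpha-type to beta-type embryonic globin, Hba-x over the sum of Hbb-y and Hbb-bh1, was more variable. It was 0.474, 0.276 and 0.242 (ratio of RPKM) in the Axin1 libraries, against 0.311, 0.228 and 0.367 in the controls. Its highest value fell in Axin1 library 1, which had the least globin, and the groups overlapped. The means were 0.331 ± 0.126 in Axin1 libraries and 0.302 ± 0.0699 in controls (SD, n = 3 each), a log2 difference of 0.10 (two-sided exact permutation test, p = 0.8). It was -0.20 without Axin1 library 1 and -0.09 without control library 2. The summed level of the 5 globins among the 9 genes had a log2 difference of -0.76 (two-sided exact permutation test, p = 0.6), and of 0.22 without Axin1 library 1.

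**Figure D3:**
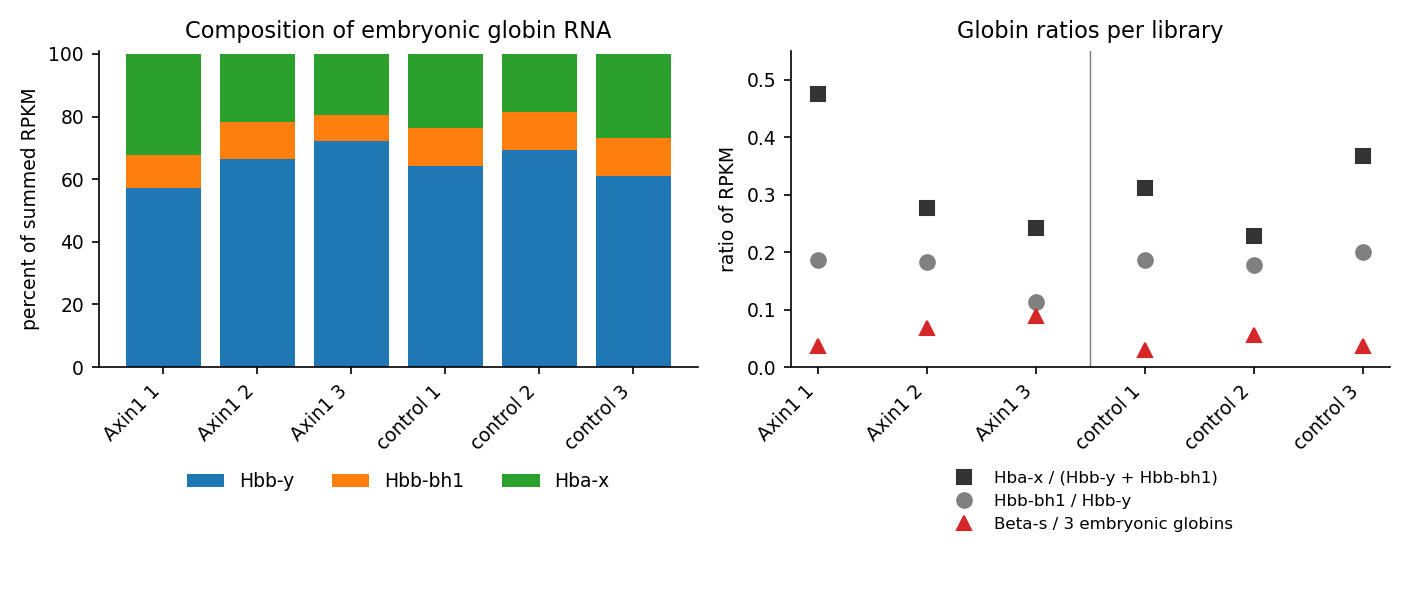
Left, share of Hbb-y, Hbb-bh1 and Hba-x in their summed RPKM (percent, stacked bars) for each library; right, 3 ratios of RPKM per library (points), with Axin1 libraries left of control libraries. Hbb-bh1 over Hbb-y lies at 0.178 to 0.2 in 5 libraries and at 0.113 in Axin1 library 3, and Hba-x over both beta-type genes is highest, 0.474, in Axin1 library 1.

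The adult globin entries Hba-a1 and Hbb-b1 had almost no reads, and their counts are not used here as levels. Hba-a1 had 0 reads in all 6 libraries in both of its entries. Hbb-b1 had 0, 2 and 2 reads in the Axin1 libraries, against 1, 3 and 1 reads in the controls. The length behind each RPKM value, worked back from reads, RPKM and library total, had a median of 624.6 bases for Hbb-y, 615.6 bases for Hbb-bh1 and 605.5 bases for Hba-x. For Hbb-b1 it was 20.2 bases, for the 2 entries of Hba-a2 6.5 and 6.1 bases, and for Hbb-b2 4.5 bases. These are far under the lengths of the embryonic globins. For Hba-a1, with no read, no such length could be worked back.

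The adult alpha globin genes Hba-a1 and Hba-a2 both lie on chromosome 11 and encode nearly the same RNA. In the GENCODE M21 transcripts (GRCm38) they differed at 1 of 538 aligned bases, and shared a run of 415 identical bases. That single difference is shown with 14 bases on each side, in the coding part of exon 3, with the differing base in capitals.
Hba-a1: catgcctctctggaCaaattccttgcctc
Hba-a2: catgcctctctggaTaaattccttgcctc
Apart from such a position and the unshared ends, a read from these genes matches both of them. Of the start positions for a 36-base read, 29.7% in Hba-a1 and 10% in Hba-a2 gave a sequence found in no other transcript. The shares were 40.9% for Hbb-bt and 33.4% for Hbb-bs, the adult beta globins of the reference, and every start position was unique in Hbb-y, Hbb-bh1 and Hba-x. The files' Hbb-b1 entry (NM_008220) is named Hbb-bt in the RefSeq table, and the files' Beta-s entry (NM_001201391) is Hbb-bs. For these 2 entries the length behind RPKM did not follow the shares, at 20.2 bases for Hbb-b1 and 268.5 bases for Beta-s. The cause was not tested. For reads that match several genes, the counting rule is not given in the sources used here. Near-zero counts of Hba-a1, Hba-a2, Hbb-b1 and Hbb-b2 are therefore not read as absence of adult globin RNA. The ratio of Hba-a1 and Hbb-b1 to the embryonic globins rests on 9 reads and is given only for completeness: its log2 difference was 0.01 over 5 libraries (Axin1 library 1 has no read; two-sided exact permutation test, p = 1.0).

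Beta-s, picked after its values were seen, was the adult beta globin entry with a usable length, of 268.5 bases. It had 46, 517 and 1144 reads in Axin1 libraries 1, 2 and 3, against 97, 572 and 509 reads in the controls. In CPM this was 3.68, 35.6 and 98.9 in the Axin1 libraries, against 8.49, 43.9 and 46.8 in the controls, a 26.9-fold range from the lowest to the highest library. Its log2 fold change was 0.48 (95% CI -2.56 to 3.51, edgeR adjusted p = 0.884). Per length, Beta-s reached 0.0364, 0.0672 and 0.0882 of the summed embryonic globin RPKM in the Axin1 libraries, against 0.0289, 0.0556 and 0.0362 in the controls. The highest share fell in Axin1 library 3, the library with the low Hbb-bh1 ratio, and the groups overlapped (log2 difference 0.63, two-sided exact permutation test, p = 0.2).

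Alas2 encodes the erythroid form of the first enzyme of haem synthesis. It had 3.83, 13.8 and 24.6 CPM in the Axin1 libraries, against 8.49, 12.7 and 25.6 CPM in the controls. The order of libraries was close to that of Hbb-y, with Axin1 library 1 lowest and control library 3 and Axin1 library 3 highest. Its range was 6.66-fold, and its log2 fold change was -0.14 (standard error 0.71, 95% CI -1.89 to 1.60, edgeR adjusted p = 0.947). Set against globin, Alas2 gave 16.5, 11.3 and 9.51 reads per 1000 embryonic globin reads in the Axin1 libraries, against 12.6, 6.95 and 8.58 in the controls.

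Hbb-y, Hba-x and Alas2 followed one another closely across the 6 libraries (r with Hbb-y of 0.969 for Hba-x and 0.973 for Alas2), so the 250 bases before their RefSeq start sites are shown here. The sequences are from the RefSeq table of GRCm38.p6, which held 8 of the 9 genes and not Hbb-bh1, and run 5′ to 3′ along the gene's strand. They are chr7:103853208-103853457 (minus strand), chr11:32276350-32276599 (plus strand) and chrX:150547167-150547416 (plus strand). Capitals mark matches, on either strand, to the GATA motif (spelled AGATAA and also TGATAA, and likewise AGATAG and also TGATAG) and to CACCC, the letters bound by GATA factors and by Klf1-type factors.
Hbb-y: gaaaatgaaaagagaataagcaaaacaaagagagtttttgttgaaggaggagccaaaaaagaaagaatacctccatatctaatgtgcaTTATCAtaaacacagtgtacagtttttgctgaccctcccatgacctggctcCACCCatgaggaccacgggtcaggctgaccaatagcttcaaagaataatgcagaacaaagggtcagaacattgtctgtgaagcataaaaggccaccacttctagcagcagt
Hba-x: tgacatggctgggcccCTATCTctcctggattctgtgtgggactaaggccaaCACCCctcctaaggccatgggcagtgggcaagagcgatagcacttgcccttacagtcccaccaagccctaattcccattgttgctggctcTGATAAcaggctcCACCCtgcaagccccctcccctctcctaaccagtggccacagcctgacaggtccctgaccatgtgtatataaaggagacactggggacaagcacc
Alas2: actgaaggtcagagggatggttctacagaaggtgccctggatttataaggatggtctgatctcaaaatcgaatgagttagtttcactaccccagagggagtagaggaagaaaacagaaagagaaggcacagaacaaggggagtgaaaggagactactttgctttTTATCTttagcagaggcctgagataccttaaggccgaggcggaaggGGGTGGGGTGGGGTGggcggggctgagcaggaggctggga
The GATA motif was found in 1 place before Hbb-y, in 2 before Hba-x and in 1 before Alas2. CACCC was found in 1, 2 and 3 places in the same order, and the 3 before Alas2 lie on the opposite strand in a row. CCAAT occurred once before Hbb-y, and TATAA occurred before Hba-x and Alas2. Among the other genes, the window of Klf1 held 1 GATA motif and 1 CACCC, that of Epb4.2 (Epb42 in the table) 1 GATA motif and no CACCC, and that of Gata1 no GATA motif and 2 CACCC. Of 32851 windows of the same length, 26.5% held a GATA motif, 52.0% CACCC, 33.8% CCAAT and 22.8% TATAA. The matches are a description of the letters in these windows.

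Gata1, the transcription factor of erythroid cells and also of megakaryocytes, varied less than the globins and in another order. It had 19.1, 53.1 and 61.5 CPM in the Axin1 libraries, against 46.6, 36.5 and 47.1 CPM in the controls. Axin1 library 1 was lowest here too, but Axin1 libraries 2 and 3 were highest and the controls were near one another, with a 1.29-fold range. The means were 44.6 ± 22.5 CPM in Axin1 libraries and 43.4 ± 5.98 CPM in controls (SD, n = 3 each), and their log2 fold change was 0.04 (95% CI -0.94 to 1.02, edgeR adjusted p = 0.975). Gata1 reads per 1000 embryonic globin reads were 82.1, 43.5 and 23.8 in the Axin1 libraries, against 69.0, 20 and 15.8 in the controls. The 2 libraries with the least globin had the most Gata1 relative to it. Globin reads are the divisor of this ratio and varied more than Gata1, so that order mostly restates the globin level.

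Klf1, an erythroid transcription factor that activates the adult beta globin gene, was barely detected. It had 3, 5 and 8 reads in the Axin1 libraries, against 0, 4 and 5 reads in the controls, and was not tested. Its countable length of 1547.0 bases is near that of its transcript (1530 bases), so the low count is not of the kind seen for adult globins. Control library 1, with 0 reads, allows up to 0.263 CPM (3 reads).

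Epb4.2, the membrane protein that ties the band 3 anion exchanger to the red cell skeleton, had 6, 66 and 61 reads in the Axin1 libraries, against 20, 47 and 16 reads in the controls. In CPM this was 0.479, 4.55 and 5.27 in the Axin1 libraries, against 1.75, 3.60 and 1.47 in the controls. Control library 3, which was high for every embryonic globin, was among the low ones here. The log2 fold change was 0.58 (95% CI -1.20 to 2.37, edgeR adjusted p = 0.749).

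Per length, and with the adult globins Hba-a1 and Hbb-b1 left aside, Hbb-y stood highest in every library, followed by Hba-x and Hbb-bh1. Hbb-b1, whose RPKM rests on 1 to 3 reads where it had any, is not ranked. Gata1 came next, at 10.4, 29.7 and 33.6 RPKM in the Axin1 libraries and 24.9, 20 and 26.0 RPKM in the controls. Alas2 followed, at 1.94, 7.06 and 12.3 RPKM in the Axin1 libraries and 4.11, 6.34 and 13 RPKM in the controls, and remained below Gata1 in all 6. Epb4.2 did not exceed 1.5 RPKM and Klf1 did not exceed 0.445 RPKM, and their order was not the same in every library.

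Across the 6 libraries of both genotypes, the embryonic globins and Alas2 moved together. Over 7 relations with Hbb-y on log2 CPM, Hba-x had Pearson r = 0.969 (exact permutation p = 0.00278, adjusted over the 7 relations 0.013) and Spearman rho = 0.943 (exact permutation p = 0.0167, adjusted 0.0777). Hbb-bh1 had r = 0.979 (exact permutation p = 0.00556, adjusted 0.013) and rho = 0.829 (exact permutation p = 0.0583, adjusted 0.102). Alas2 had r = 0.973 (exact permutation p = 0.00556, adjusted 0.013) and rho = 0.886 (exact permutation p = 0.0333, adjusted 0.0777). The rank correlations did not pass the adjustment. Without the 2 libraries farthest from the median of Hbb-y, Axin1 library 1 and control library 1, r over the other 4 was 0.881 for Hba-x, 0.775 for Hbb-bh1 and 0.837 for Alas2. An r with Hbb-y at least as high as that of Hba-x was found for 0.182% of the tested genes.

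The other genes followed Hbb-y less closely. Gata1 had r = 0.805 (exact permutation p = 0.0625, adjusted 0.0875) and rho = 0.714 (exact permutation p = 0.136, adjusted 0.159), and r was 0.164 without Axin1 library 1 and control library 1. Epb4.2 had r = 0.753 (exact permutation p = 0.0792, adjusted 0.0924) and rho = 0.600 (exact permutation p = 0.242, adjusted 0.242), and r was -0.381 without those libraries. Both relations thus rest on the libraries with the least globin. Klf1 had r = 0.578 (exact permutation p = 0.242, adjusted 0.242) and rho = 0.886 (exact permutation p = 0.0333, adjusted 0.0777), and Hbb-b1 r = 0.816 (exact permutation p = 0.0486, adjusted 0.0851) and rho = 0.714 (exact permutation p = 0.136, adjusted 0.159), both on a handful of reads. Beta-s, outside those 7, had r = 0.964 (exact permutation p = 0.00139) and rho = 1.0 (exact permutation p = 0.00278), with r = 0.732 without the same 2 libraries. The median r of the 7 relations was 0.816, and 0.812 after each group's mean was removed. Among the 15 pairs of tested genes, r ran from 0.584 (Hba-x with Epb4.2) to 0.979 (Hbb-y with Hbb-bh1).

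Other genes of the red cell followed this pattern in part, and most of those that did encode membrane proteins. Each of 67 tested genes from 6 lists of erythroid genes (84 listed, 77 found) was correlated over the 6 libraries with the mean log2 CPM of the 3 embryonic globins. An r of at least 0.9 was reached by 7 of the 67 (10.4%), where 1.25% of all tested genes reached it. Of the 7, 5 of 16 tested came from the red cell membrane list, among them Slc4a1 (band 3, r = 0.946), Rhag (Rh-associated glycoprotein, r = 0.966), Ank1 (ankyrin 1, r = 0.919) and Ermap (r = 0.934). Outside that list were Blvrb, a biliverdin reductase (r = 0.918), and Steap3, an iron reductase of the transferrin cycle (r = 0.932). These genes are named because they passed that value. Some rest on few reads: Ank1 had 1, 7 and 20 in the Axin1 libraries, against 1, 12 and 15 in the controls. Ermap had 4, 32 and 64 reads in the Axin1 libraries, against 25, 32 and 46 in the controls. Slc4a1 had 1.68, 9.78 and 25.5 CPM in the Axin1 libraries, against 4.2, 9.13 and 15.4 CPM in the controls. Rhag had 0, 1.58 and 4.75 CPM in the Axin1 libraries, against 1.05, 1.84 and 3.95 CPM in the controls. In both, as in the globins, Axin1 library 1 was lowest and the third library of each group was high.

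Alas2, counted among the 9 genes and not in these lists, had r = 0.974. Of the 14 other haem synthesis and export genes tested, and of the 15 other transcription factor genes tested, 0 reached r = 0.9. The median r was 0.67 in the membrane list, 0.58 among globin folding, redox and late erythroid genes, 0.48 among erythropoietin and iron uptake genes, 0.18 among transcription factors and 0.098 among haem genes. It was -0.0014 over all tested genes. Among marker lists of other cells it was 0.76 for megakaryocytes and platelets, 0.60 for macrophages and 0.59 for pericytes and mesenchyme. For neural markers it was 0.58, and for endothelial markers -0.10. Medians of this size were thus not particular to the erythroid lists, although 0 of these markers reached r = 0.9. Without Axin1 library 1 the count was 4 of 67 (5.97%), against 1.94% of all genes. Ank1 and Rhag were among these 4, Slc4a1, Ermap, Blvrb and Steap3 were not, and Rhd and Slc11a2 came in. With any other single library left out it was 8 to 11 of 67, against 2.37% to 3.93% of all genes.

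**Figure D4:**
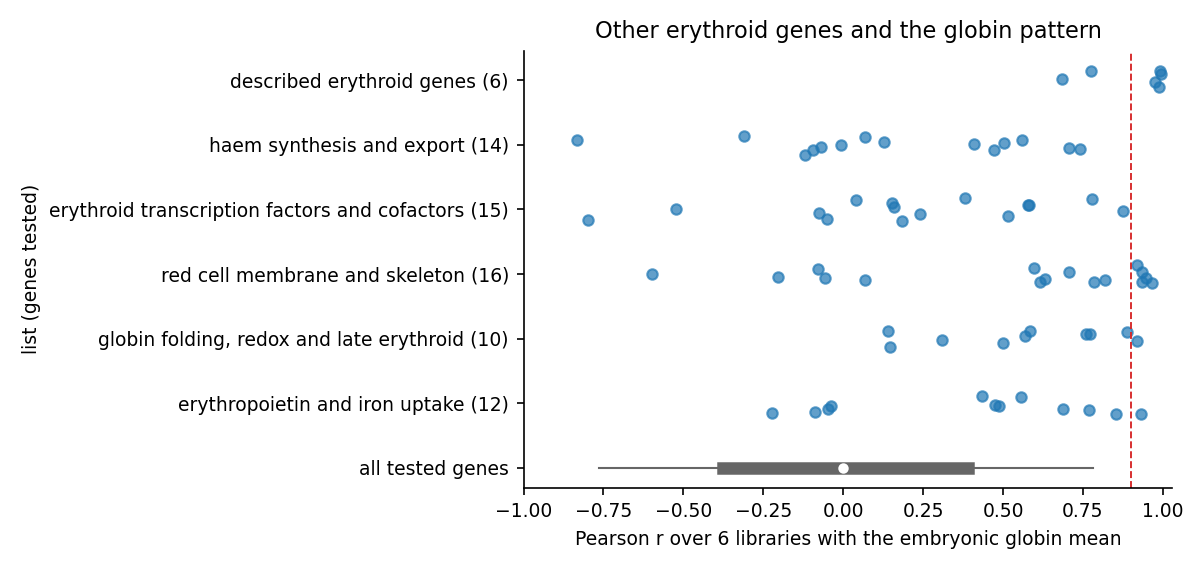
Pearson r over the 6 libraries between log2 CPM of each gene and the mean log2 CPM of Hbb-y, Hbb-bh1 and Hba-x, 1 point per tested gene, by list with the number tested in brackets; the dashed line marks 0.9. The bottom row gives all 12661 tested genes as median (point, -0.001), 25th to 75th percentile (bar, -0.375 to 0.390) and 5th to 95th percentile (line, -0.763 to 0.781); 5 of 16 membrane genes and none of 14 haem genes lie right of the dashed line, and the 3 globins of the mean are among the top row's points.

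Between the genotypes, 2 of the 67 other erythroid genes passed edgeR's test, both lower in the Axin1 libraries, and 0 were higher, against 0.490% and 0.355% of all tested genes. Urod, a haem synthesis enzyme of most cells, had 61.7, 69.7 and 63.5 CPM in the Axin1 libraries, against 103, 104 and 106 CPM in the controls. The groups did not overlap, and Urod fell by 0.69 on the log2 scale (edgeR adjusted p = 0.0409). Car2, a carbonic anhydrase of red cells and of other tissues, had 493, 516 and 357 CPM in the Axin1 libraries, against 1396, 1140 and 1090 CPM in the controls. It fell by 1.41 on the log2 scale (edgeR adjusted p = 0.0208). Neither gene followed the globins closely: r with the embryonic globin mean was 0.408 for Urod and 0.141 for Car2. With 1 library left out, the log2 fold change stayed at -0.74 to -0.65 for Urod and -1.51 to -1.26 for Car2, but the calls did not all hold: without Axin1 library 2, control library 1 or control library 2 neither passed (edgeR adjusted p 0.136 to 0.198 for Urod and 0.0624 to 0.132 for Car2), and without Axin1 library 1 or 3 Urod did not pass (0.0816 and 0.107). Calls over all tested genes fell in the same fits, from 107 to 0 without Axin1 library 2 or control library 2. The loss of both calls there is thus not particular to Urod and Car2. There were 10 calls without control library 1, 33 without Axin1 library 1 and 18 without Axin1 library 3. DESeq2 called 10 of the 67, which were 4 higher and 6 lower, where it called 5.69% of all tested genes.

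The 67 had 36 positive and 31 negative log2 fold changes (median 0.017), and all tested genes had 6648 positive and 6013 negative ones (median 0.021). By list the median was 0.039 for haem genes, -0.047 for transcription factors, 0.090 for membrane genes, -0.31 for folding, redox and late erythroid genes, and 0.057 for erythropoietin and iron uptake genes. Those with the smallest p in their lists that did not pass included Lmo2, a partner of Gata1 and Tal1 in erythroid and endothelial cells (log2 fold change -0.56, edgeR adjusted p = 0.0839). For Tfrc, the transferrin receptor, the log2 value was -1.34 (edgeR adjusted p = 0.106), and for Epb4.9, the membrane skeleton protein dematin, it was 0.77 (edgeR adjusted p = 0.168).

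Markers of other blood cells differed between the same libraries. The sum of 13 megakaryocyte and platelet markers was 1029, 2760 and 3696 CPM in the Axin1 libraries, against 2110, 2077 and 2267 CPM in the controls. The sum of 14 macrophage markers was 280, 1405 and 2963 CPM in the Axin1 libraries, against 546, 957 and 502 CPM in the controls. Every marker on both lists had reads in at least 1 library. Axin1 library 1 was lowest on both sums and lowest for the embryonic globins, while control library 3, highest in embryonic globin, was low in macrophage markers. The summed endothelial markers kept within 7813 and 9020 CPM.

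Of 30 relations between the 6 tested genes and 5 marker sums, computed after the values were seen, Gata1 stood closest to the megakaryocyte markers. Its r was 0.969 (exact permutation p = 0.00139, adjusted over the 30 relations 0.0417) and its rho 1.0 (exact permutation p = 0.00278, adjusted 0.0417), and r was 0.779 without Axin1 libraries 1 and 3. Epb4.2 stood closest to the macrophage markers, with r = 0.938 (exact permutation p = 0.0111, adjusted 0.139) and rho = 1.0 (exact permutation p = 0.00278, adjusted 0.0417). For Hbb-y the r was 0.845 with the megakaryocyte markers (exact permutation p = 0.0417, adjusted 0.25; rho 0.714) and 0.688 with the macrophage markers (exact permutation p = 0.131; rho 0.600). Without Axin1 library 1 and control library 1 these were 0.196 and -0.033. With the megakaryocyte markers r was 0.766 for Hbb-bh1, 0.748 for Hba-x, 0.865 for Alas2 and 0.904 for Epb4.2. Without the 2 libraries farthest from each gene's median it was -0.395, 0.714, 0.908 and 0.52. With the neural markers r was 0.501 to 0.676 for the 3 embryonic globins and Alas2, and 0.643 to 0.954 on 4 libraries. It was 0.091 for Gata1 and -0.082 for Epb4.2. None of these passed the adjustment (exact permutation, adjusted p of at least 0.139). The part of these cell types in the levels of the 6 genes was not tested.

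**Figure D5:**
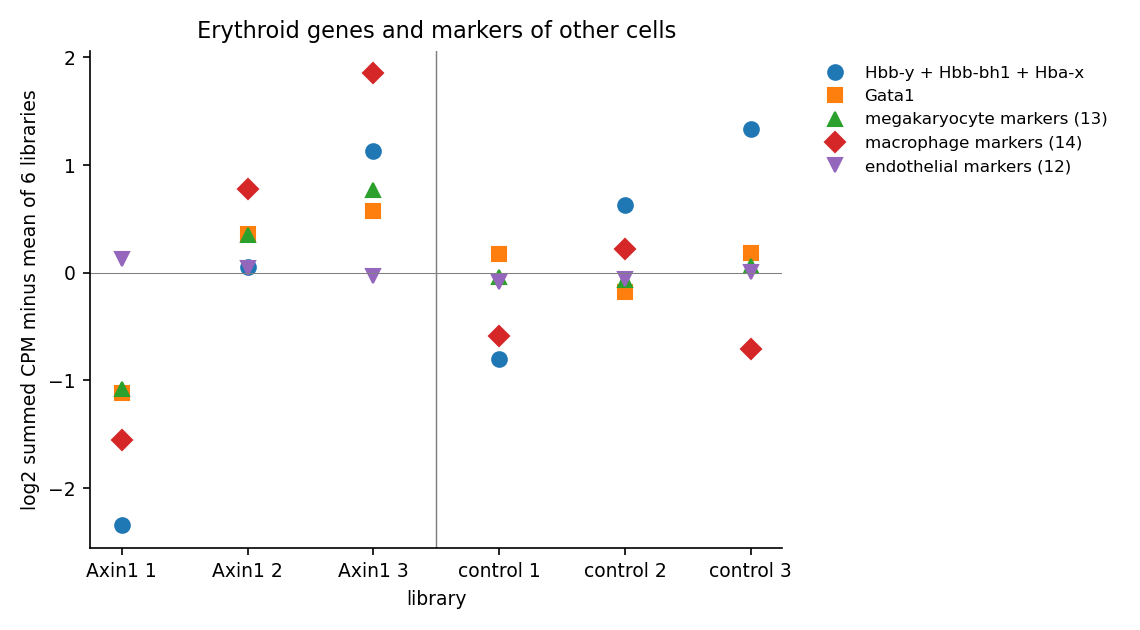
Log2 of the summed CPM of each gene set minus its mean over the 6 libraries, for the 3 embryonic globins, Gata1, and markers of megakaryocytes, macrophages and endothelium, with Axin1 libraries left of control libraries. The points of Gata1 lie close to those of the megakaryocyte markers (r = 0.969), while the endothelial markers stay near 0 in all 6 libraries.

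Tested genes were also ranked by r to the embryonic globin mean over the 6 libraries. The 9 erythroid genes, predicted or provisionally named genes, pseudogenes and entries of several symbols were left aside. The highest 10 were Zkscan4 (r = 0.995), Cln6, Ccdc32, Cpt1a, Ncoa1, Lrrc4, Cd79b, Mavs, Pxmp3 and Bcas1 (r = 0.974), none of them on the lists. Among them Ccdc32 had 22.5, 26.1 and 27.9 CPM in the Axin1 libraries, against 25, 27.9 and 29.8 CPM in the controls, a 1.32-fold range. An r of at least 0.95 was reached by 46 of the 12661 genes (0.363%).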

How the data were processed

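RNA was measured in CD31-sorted brain endothelial cells with the SMARTer ultra-low-input kit on polyadenylated RNA, per the labels' protocols. The authors deposited, per the file headers, a whole-number read count and an RPKM/FPKM value per RefSeq entry for each library. The submitters' processing notes name Bowtie and mm9, without versions. For the counting program, the strand setting and multiply matching reads, the procedure is not given in the sources used here, and reads of a gene and an overlapping antisense gene cannot be told apart.

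Library totals ran from 10772492 to 14234409 reads. Counts were tested as deposited with edgeR 4.0.16 (R 4.3.3; quasi-likelihood, robust, TMM, filterByExpr with minimum count 10 and minimum total 15) over 12661 genes, with Benjamini-Hochberg adjustment at 0.05. Levels are TMM-normalised CPM. Correlations used log2 CPM with a prior count of 2. Globin ratios used the deposited RPKM and two-sided exact permutation tests on log2 ratios. Confidence intervals are 95% and, for shares of reads, exact (Clopper-Pearson), covering counting error only. The model was tested on simulated data. Alternatives were DESeq2 1.42.0, limma 3.58.1 on log2 RPKM with pseudocounts of 1 and 0.1, other normalisation factors, no filter, replicate blocks and leaving out each library. Every pair of libraries differed beyond sampling noise (chi-square over degrees of freedom, 15.3 to 56.7).

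Genes were named as follows: all 9 erythroid genes, up to 4 genes per list with the smallest p (part of which are printed), and the 10 genes most like the embryonic globins. Those 10 were taken after the exclusions given with them. Other names are said to be chosen on their values. The genes and lists were chosen with earlier results of these data known. Promoters and GENCODE M21 transcripts are of GRCm38, another build than the files', and serve sequence only. Some genes of these lists are not reported here.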

Additional observations from a re-analysis of the deposited data

How the results depend on the processing

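None of the 6 tested erythroid genes passed the threshold in any of the 15 alternatives, where DESeq2 gave Epb4.2 no adjusted p. Hbb-bh1 kept a negative log2 fold change in all of them. Leaving out 1 library gave log2 fold changes of -1.31 to 0.19 for Hbb-y, -1.37 to -0.27 for Hbb-bh1, -1.35 to 0.16 for Hba-x, -0.81 to 0.40 for Alas2, -0.26 to 0.40 for Gata1 and 0.15 to 1.09 for Epb4.2. Signs turned without Axin1 library 1 for Hbb-y (0.19) and Alas2 (0.30), without control library 3 for Hbb-y (0.14), Hba-x (0.16) and Alas2 (0.40), and for Gata1 without Axin1 library 2 (-0.11), Axin1 library 3 (-0.26) or control library 2 (-0.07). Gata1 was also negative in limma on log2 RPKM with a pseudocount of 1 (-0.09) or 0.1 (-0.10). The cause was not tested.

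Leaving out 1 library gave log2 differences of -0.39 to -0.03 for Hbb-bh1 to Hbb-y, -0.20 to 0.29 for alpha-type to beta-type (-0.20 without Axin1 library 1, -0.09 without control library 2), -0.63 to 0.40 for adult to embryonic (-0.16 without Axin1 library 2, -0.63 without control library 3) and -1.51 to 0.22 for the summed globin level (0.22 without Axin1 library 1). The median r with Hbb-y stayed at 0.79 to 0.962. The count of other erythroid genes with r of at least 0.9 ran from 4 to 11.

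Of the other erythroid genes, 2 passed in the fit reported, 10 with DESeq2, and 0 to 7 with 1 library left out (0 without Axin1 library 2, control library 1 or control library 2, 1 without Axin1 library 1 or 3, 7 without control library 3). Over all genes the fit reported called 107, DESeq2 720, no filter 197, and leaving out 1 library 0 (without Axin1 library 2 or control library 2) to 695 (without control library 3).

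Biological replicate numbers are shared between the groups, and the title numbers 1813 and 1814 are shared by the first and second libraries of each. Deviations from the group means correlated at 0.234 and 0.152 between the libraries that share a title number. The third libraries, which share none, gave -0.0229, and libraries with unlike numbers gave -0.249 to 0.175. Whether a shared number means a shared litter is not stated in the labels, so the numbers were used only as blocks in alternative fits. With the biological replicate number as a replicate block, 105 genes passed, Urod did not (adjusted p 0.0597) and Tfrc did. The log2 fold changes were then -0.76 for Hbb-y, -1.02 for Hbb-bh1, -0.70 for Hba-x (edgeR adjusted p = 0.0954) and -0.10 for Gata1. Among the 4 libraries with a shared title number, a replicate block called 1500 of 12628 genes and 13 of 65 other erythroid genes. The log2 fold changes there were -1.17 for Hbb-y, -1.12 for Hbb-bh1, -0.72 for Hba-x (edgeR adjusted p = 0.0549), -0.35 for Gata1 and -0.49 for Epb4.2. With blocks and groups both fitted to 4 libraries, little was left to measure the spread between libraries. Without the block those 4 libraries gave 512 and 6 calls, with -0.84 for Hbb-y, -0.82 for Hbb-bh1, -0.55 for Hba-x, -0.20 for Gata1 and -0.08 for Epb4.2. Paired in those 4 (replicate block), the log2 differences were 0.02 for Hbb-bh1 to Hbb-y, 0.44 for alpha-type to beta-type and -1.03 for the summed level. For adult to embryonic the value was -0.32, from Axin1 library 2 against control library 2 alone. Axin1 library 1 had no read of Hba-a1 or Hbb-b1, so its pair gave no ratio.

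With 3 libraries a group and a 14-fold range within the Axin1 group, the spread between libraries limits the globin comparison. Klf1 had too few reads to be tested. Hbb-b1 had a short countable length, and Hba-a1 had no read from which to work one back.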

Other observations

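Further globin entries outside the 9 genes had few reads. Hbq1b, a theta-type globin, had 4, 11 and 13 reads in the Axin1 libraries, against 1, 10 and 9 reads in the controls, and Hbq1a had 0, 4 and 2 reads in the Axin1 libraries, against 0, 0 and 2 reads in the controls. Hbb-b2 had 0, 5 and 4 reads in the Axin1 libraries, against 0, 4 and 1 reads in the controls. Car1, a carbonic anhydrase of red cells, had 3, 23 and 16 reads in the Axin1 libraries, against 5, 8 and 7 reads in the controls. The ratio of Alas2 to Gata1 (RPKM) was 0.186, 0.237 and 0.367 in the Axin1 libraries, against 0.165, 0.317 and 0.498 in the controls, so that the order of libraries within each group was the same as for Hbb-y.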
